A study of Mus musculus with 18 samples.

Results

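The comparison described here sets the tumour effect in CD8 T cells against the tumour effect in conventional CD4 T cells (Tconv). For every probe the spleen level was subtracted from the tumour level within each population, and the Tconv difference was then subtracted from the CD8 difference. A positive value means that the level in tumour, relative to spleen, was higher in CD8 cells than in Tconv, and a negative value the reverse. The comparison used 12 of the 18 arrays of the series, 3 in each of 4 groups. It covered all 22409 named probes, of 14581 genes, that were detected on at least 3 of the 18 arrays. These probes were chosen by detection and name, and not by their difference.

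All mice were female C57BL/6 of the genotype Foxp3-GFP-DTR-CD90.1, in which the Foxp3 gene drives a reporter, so that Foxp3- CD4 cells can be sorted apart from regulatory T cells (Treg). Every mouse carried a B16F10 melanoma, a transplantable mouse tumour line, grown from 50000 cells injected under the skin. Tumour and spleen were taken when tumours were about 10 mm across, so the spleen groups also came from tumour-bearing mice and not from healthy ones. The CD8 groups held CD8+ CD4- CD11b- cells and the Tconv groups CD4+ Foxp3- CD8- CD11b- cells, each from B16 melanoma or from spleen. The sources used here do not give age. Cells were pooled before sorting, and no label says whether replicates came from separate mice, so the p-values cover only the spread between the arrays of a group, which may be technical. Each of 3 BeadChips (glass slides that hold several arrays) carried 1 array of every group, and each group lay at the same position on every BeadChip, so group and position cannot be told apart.

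CD8 T cells recognise peptides on MHC class I and kill target cells by releasing cytotoxic granules. Conventional CD4 T cells recognise peptides on MHC class II and act mostly by secreting cytokines and by costimulating other cells. Cells of both kinds that enter a tumour carry marks of recent antigen contact, of migration into tissue and of stress, and a difference of differences asks which of these marks are acquired to unequal degrees.

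Median raw signal ran from 79.0 to 88.1 intensity units over the 18 arrays and 38.0% to 45.2% of probes were detected on an array. The spleen CD8 arrays were at the low end, with 39.1%, 38.0% and 40.3% detected. Levels below are log2 normalized intensities with a floor of 4, at which a probe is not above background. Arrays of a group correlated with r between 0.901 and 0.955 across probes in the 4 groups. The mean correlation of an array with its own group was lowest in spleen CD8 cells, at 0.909, 0.916 and 0.924. The sort was visible in the lineage genes. The brighter probe of Cd4, the MHC class II coreceptor, read 8.71, 8.78 and 9.01 in tumour Tconv and 8.56, 8.47 and 8.81 in spleen Tconv, against 4.15 to 4.54 in tumour CD8 and 4.16 to 4.40 in spleen CD8 cells. A probe of Cd8b1, the beta chain of the CD8 coreceptor, read 8.73, 9.27 and 9.34 in tumour CD8, 9.52, 9.48 and 9.29 in spleen CD8, 4.08, 4.50 and 4.30 in tumour Tconv and 4.76, 4.33 and 4.23 in spleen Tconv. CD8 cells and Tconv did not overlap on either probe. The brightest Cd8b1 probe had means of 10.97 (tumour) and 11.11 (spleen) in CD8 cells, and 6.08 and 6.58 in Tconv. Another Cd8b1 probe was bright in all 4 groups and higher in Tconv, with means of 7.85 and 7.77 against 6.51 and 7.02. Neither Cd4 (-0.14 ± 0.24 SE on the brighter probe) nor the Cd8b1 probe given first (-0.17 ± 0.25 SE) passed the test of the difference of differences. Both Cd8a probes of the array were below the detection filter. The general T cell gene Cd3e lay between 9.57 and 9.76 in the 4 group means of 1 probe, and Itgam, which encodes the excluded CD11b, between 4.13 and 4.43. Foxp3 had group means of 4.16 to 4.28 on 1 probe, while its brightest probe read 6.44 to 7.37 across all 4 groups. Their differences of differences were -0.17 ± 0.18 and -0.13 ± 0.40.

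The tumour effect differed between the 2 populations for 6 of 22409 probes (0.0268%) at an adjusted p under 0.05 in the limma fit. Of these, 1 was higher in the CD8 direction (0.00446%) and 5 were lower (0.0223%). At an unadjusted p under 0.05 there were 1292 probes (5.77%), 614 of them positive (2.74%) and 678 negative (3.03%). The negative calls were Nkg7, Hspa1a, Itpk1, Cul9 and Ramp3, and the positive call was Tcrg. All 6 had the same direction on all 3 BeadChips, as did 5741 of all probes tested. The median difference over all probes was -6.2e-05, its quartiles were -0.23 and 0.23, and the median 95% interval reached 0.71 to either side of the estimate, so that for a typical probe differences smaller than that could not be separated from 0. With the 12 arrays alone, without the Treg arrays that add to the estimate of the spread, only Nkg7 passed. Without all arrays of any 1 of the 3 replicate numbers, the Treg arrays included, no probe passed, while 1138 to 1565 probes had an unadjusted p under 0.05.

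**Figure D1:**
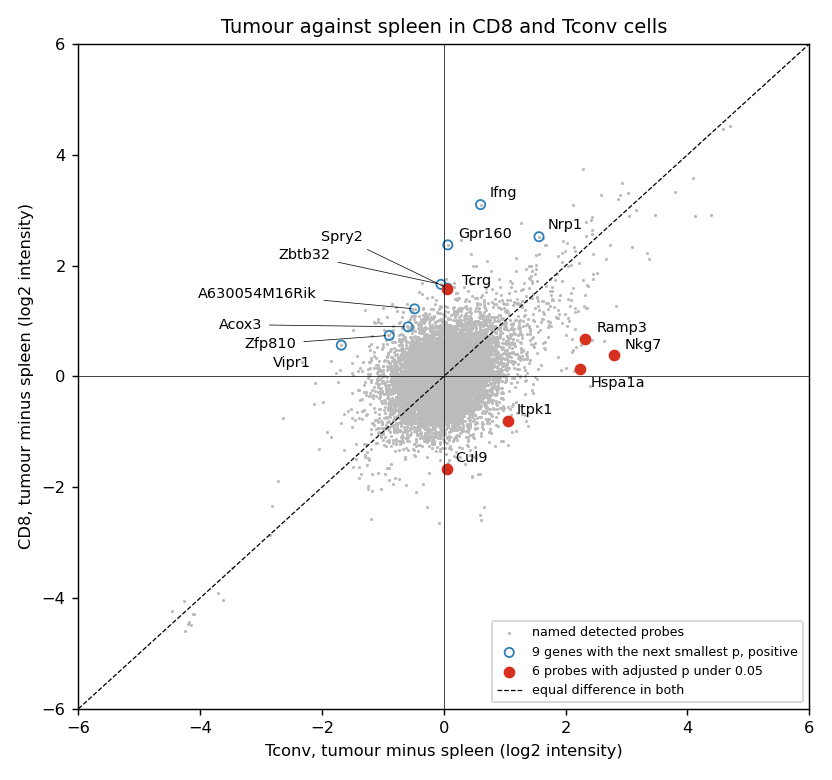
Difference between tumour and spleen in Tconv (horizontal axis, log2 intensity) and in CD8 cells (vertical axis, log2 intensity) for each named detected probe. The 6 probes whose difference between the populations passed are filled red and the 9 genes with the next smallest p among positive differences are open circles; on the dashed line the tumour effect is equal in both.

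Within each population many more probes passed between tumour and spleen than the 6 called for the difference between the populations. That difference also has a larger SE than either tissue difference (for Nkg7, 0.34 against 0.24), which makes calls fewer. On its own, the tumour against spleen difference passed for 222 probes in CD8 cells (0.991%; 170 higher and 52 lower in tumour) and for 230 in Tconv (1.03%; 193 higher and 37 lower). Of these, 93 passed in both populations, all with the same sign, which is 93 of 222 in CD8 and 93 of 230 in Tconv. Markers of macrophages and of erythroid cells are among these 93 probes. Among the 129 that passed only in CD8 cells, 111 had the same sign in Tconv, and among the 137 that passed only in Tconv, 125 had the same sign in CD8 cells. The difference between the populations itself passed for 2 of these 129 and 3 of these 137, so that for the rest a call in 1 population was not shown to be particular to it.

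Nkg7, which encodes a membrane protein of cytotoxic granules, was the called gene with the largest difference. It read 10.22, 9.95 and 10.00 in tumour CD8 and 9.51, 9.64 and 9.83 in spleen CD8 cells. In Tconv it read 8.41, 8.36 and 8.19 in tumour and 5.20, 5.77 and 5.61 in spleen. The CD8 arrays were bright in both tissues, and only the spleen Tconv arrays were low; no group overlapped another. Nkg7 rose in Tconv by 2.80 ± 0.24 (SE) log2 units, whereas its difference in CD8 cells was 0.39 ± 0.24 (adjusted p = 0.614). The difference of differences was -2.41 ± 0.34 (95% interval -3.14 to -1.67, adjusted p = 0.0194), with -2.51, -2.28 and -2.42 on the 3 BeadChips.

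The size of this difference depended on the scale. In linear normalized intensity, Nkg7 gained 253 units in tumour CD8 cells over spleen CD8 cells and 274 units in tumour Tconv over spleen Tconv, a difference of -21.2 units with no test. All 6 calls kept their sign on the linear scale. Nkg7 passed in 13 of 29 alternative settings and kept its sign in all of them, though in some, such as the detection filters, only the p-value can change. It missed the threshold with median scaling (adjusted p = 0.0758), without background correction (0.105), with an offset of 50 (0.0636) and in the deposited normalized values (0.173). It also missed it without tumour CD8 replicate 2 or 3, spleen CD8 replicate 3, any tumour Tconv replicate, or spleen Tconv replicate 1 or 3, at adjusted p from 0.0534 to 0.0836.

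The promoter window of Nkg7 is shown because the gene carries the largest called difference. It was taken from RefSeq (build GRCm38.p6, chr7:43436888-43437187, plus strand, 250 bases before to 50 after the gene's start), with the T-box motif AGGTGTGA in capitals, the letters bound by Tbx21 and Eomes, transcription factors of cytotoxic and type 1 cells.
Nkg7: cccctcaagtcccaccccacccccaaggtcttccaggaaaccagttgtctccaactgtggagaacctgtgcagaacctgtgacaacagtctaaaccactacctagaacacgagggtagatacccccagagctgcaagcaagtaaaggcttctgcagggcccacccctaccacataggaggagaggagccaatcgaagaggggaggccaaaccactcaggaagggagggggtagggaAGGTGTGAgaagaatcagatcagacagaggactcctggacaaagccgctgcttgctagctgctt
The motif, searched on both strands, occurred 1 time, with its first base at position -14 from the start. It was held by 419 of 32851 windows of this length (1.28%), and of the 5 called genes with a window only Nkg7 held it. A match of letters describes the window and does not show binding.

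Nkg7 is also a gene of natural killer (NK) cells. On the Cd8b1 probe given by array above, tumour Tconv, at 4.08 to 4.50, was no higher than spleen Tconv, at 4.23 to 4.76. The brightest Cd8b1 probe lay above the floor in Tconv, at 5.35, 7.25 and 5.65 in tumour and 7.46, 6.33 and 5.97 in spleen. Of 9 NK marker genes, 7 were measured. Their summed level ran from 7.23 to 8.88 in tumour Tconv and from 5.23 to 7.94 in spleen Tconv, and from 8.24 to 8.82 in tumour CD8 and from 6.17 to 7.13 in spleen CD8 cells. Most of this sum came from Tyrobp, which myeloid cells also express (mean 7.97 in tumour Tconv), while Klrb1c, the NK1.1 antigen, had means of 4.56 in tumour Tconv and 4.42 in spleen Tconv. What part other cells had in the Nkg7 values was not tested.

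Chemokine receptors of the type 1 programme also rose in Tconv, and their difference of differences did not pass. Cxcr3, the receptor for Cxcl9 and Cxcl10, read 8.41, 8.24 and 8.17 in tumour Tconv and 5.95, 6.31 and 5.58 in spleen Tconv. In CD8 cells it read 8.17, 8.18 and 8.32 in tumour and 7.66, 7.53 and 7.30 in spleen. Both tumour groups lay at about the same level, and the spleen groups lay apart. Cxcr3 rose in Tconv by 2.33 ± 0.19, its CD8 difference was 0.72 ± 0.19 (adjusted p = 0.107), and the difference of differences was -1.61 ± 0.27 (95% interval -2.18 to -1.03, adjusted p = 0.0807). It passed in 1 alternative, without spleen Tconv replicate 2 (-1.79, adjusted p = 0.0291). Cxcr6, the receptor for Cxcl16 and a mark of T cells resident in tissue, read 8.39, 8.42 and 7.80 in tumour Tconv against 6.00, 6.22 and 6.03 in spleen Tconv, and 8.95, 8.17 and 8.16 in tumour CD8 against 7.85, 8.31 and 7.67 in spleen CD8 cells. Its CD8 groups overlapped and its Tconv groups did not. Cxcr6 rose in Tconv by 2.12 ± 0.25 and the difference of differences was -1.64 ± 0.36 (adjusted p = 0.242).

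Hspa1a encodes the inducible HSP70 chaperone, which is made when proteins are damaged. Its called probe read 5.90, 6.86 and 6.55 in tumour Tconv. On the other arrays it lay between 4.08 and 4.34, and it was detected on 1 of the 9, a tumour CD8 array. Tumour Tconv stood alone above the floor. Since the probe was not detected in spleen Tconv, the tumour level there was at least 4.53-fold higher. The fitted Tconv difference was 2.23 ± 0.18, the CD8 difference 0.13 ± 0.18 (adjusted p = 0.875), and the difference of differences -2.10 ± 0.25 (95% interval -2.64 to -1.56, adjusted p = 0.00652). The call was lost without background correction (adjusted p = 0.0629) and in the deposited normalized values (adjusted p = 0.108).

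The other probes of Hspa1a did not pass. A probe that was bright in both tumour groups read 5.54, 5.74 and 6.27 in tumour CD8 and 4.17, 4.43 and 4.07 in spleen CD8 cells, and 6.24, 6.54 and 6.72 in tumour Tconv and 4.07, 4.20 and 4.14 in spleen Tconv. By this probe Hspa1a rose in both populations, by 1.63 ± 0.18 in CD8 cells and by 2.37 ± 0.18 in Tconv, where it was undetected in spleen and at least 4.85-fold higher in tumour. Its difference of differences was -0.74 ± 0.25 (95% interval -1.28 to -0.20, adjusted p = 0.731). The remaining probe lay near the floor and gave 0.06 ± 0.38. The size of the Hspa1a difference thus depended on the probe.

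The windows of Hspa1a and its neighbour Hspa1b are shown because a probe may read either gene. Both are from RefSeq (GRCm38.p6, minus strand), Hspa1a at chr17:34972107-34972406 and Hspa1b at chr17:34959189-34959488. Capitals mark GAANNTTC, a part of the heat shock element that heat shock factors bind, called the element below.
Hspa1a: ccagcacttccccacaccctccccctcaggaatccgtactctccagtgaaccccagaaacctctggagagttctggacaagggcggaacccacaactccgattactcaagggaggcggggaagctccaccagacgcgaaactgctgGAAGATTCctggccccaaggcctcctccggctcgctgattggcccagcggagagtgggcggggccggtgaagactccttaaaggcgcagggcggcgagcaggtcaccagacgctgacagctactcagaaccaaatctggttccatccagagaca
Hspa1b: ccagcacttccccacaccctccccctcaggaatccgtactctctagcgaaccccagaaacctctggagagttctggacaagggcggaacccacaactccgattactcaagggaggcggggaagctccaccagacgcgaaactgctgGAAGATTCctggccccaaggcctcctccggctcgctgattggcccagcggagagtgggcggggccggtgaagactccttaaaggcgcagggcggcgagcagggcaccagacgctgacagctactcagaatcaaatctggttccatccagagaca
The 2 windows agreed at 296 of 300 bases, and in each the element occurred 1 time with its first base at position -104. The element, searched on both strands, was held by 2582 of 32851 windows (7.86%), and by Hspa1a and none of the other 4 called genes with a window. In the heat shock list 9 of 19 windows held it, and 8 of the 13 genes with a window. A match of letters describes the window and does not show binding. Because the genes are near-identical copies, signal named Hspa1a may come from either, and the 1 measured probe named Hspa1b lay near the floor, at 4.11 to 4.39.

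Of 25 probes of 15 heat shock genes, 1 was called, and 3 were negative and 0 positive at an unadjusted p under 0.05 (3.03% and 2.74% over all probes). The median difference was -0.08 beside -6.2e-05 over all probes. Of the 3 negative probes, 2 were of Hspa1a. The other negative gene was Dnaja1, an HSP40 cochaperone, at -0.88 ± 0.29 (adjusted p = 0.721) on a probe near the floor. Hspa8, the HSP70 made without stress and named here after its values were seen, had means of 10.19, 10.14, 10.23 and 10.24 in tumour Tconv, spleen Tconv, tumour CD8 and spleen CD8 cells on its brightest probe and a difference of differences of -0.06 ± 0.18.

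Ramp3, an accessory protein that turns the calcitonin receptor-like receptor into a receptor for adrenomedullin, was the called gene that rose in both populations. It read 6.85, 6.92 and 7.13 in tumour Tconv and 4.38, 4.66 and 4.88 in spleen Tconv. In CD8 cells it read 4.86, 4.96 and 5.00 in tumour and 4.10, 4.15 and 4.53 in spleen. Tumour Tconv lay above all other groups, and tumour CD8 cells lay above spleen CD8 cells. The rise was 2.32 ± 0.15 in Tconv and 0.68 ± 0.15 in CD8 cells (adjusted p = 0.038), and the difference of differences was -1.64 ± 0.21 (95% interval -2.08 to -1.21, adjusted p = 0.0066). A second probe gave a similar estimate with a wider error, -1.69 ± 0.30 (adjusted p = 0.114), and another lay near the floor and gave -0.04. The call was lost with median scaling (adjusted p = 0.273), with an offset of 4 (0.364) and with a trend in the prior variance (0.251).

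Maf, a transcription factor of helper T cells that drives Il4, Il10 and Il21, had a similar arrangement that did not pass. Its brighter probe read 6.56, 7.29 and 6.38 in tumour Tconv, 4.59, 4.93 and 5.11 in spleen Tconv, 4.65, 4.42 and 4.32 in tumour CD8 and 4.06, 4.17 and 4.13 in spleen CD8 cells. Maf rose in Tconv by 1.87 ± 0.21, while the CD8 difference was 0.34 ± 0.21 (adjusted p = 0.615). The difference of differences was -1.52 ± 0.30 (95% interval -2.17 to -0.88, adjusted p = 0.19), and a second probe gave -0.58 ± 0.38.

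Itpk1, a kinase that makes higher inositol phosphates, had tissue differences of opposite sign in the populations. It read 6.11, 6.29 and 6.09 in tumour CD8 and 6.96, 6.83 and 7.12 in spleen CD8 cells. In Tconv it read 6.68, 6.87 and 7.48 in tumour and 5.83, 6.20 and 5.85 in spleen. The tissues did not overlap within either population, tumour being the lower in CD8 cells and the higher in Tconv. Itpk1 rose in Tconv by 1.05 ± 0.21 (adjusted p = 0.0198), its CD8 difference of -0.81 ± 0.21 did not pass (adjusted p = 0.0911), and the difference of differences was -1.86 ± 0.29 (95% interval -2.48 to -1.24). With an adjusted p of 0.0489 it lay just inside the threshold. It passed in 4 of 29 alternatives, and with the replicate block its adjusted p was 0.1.

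Cul9, a cullin that serves as scaffold of a ubiquitin ligase and binds p53, was the called gene that fell in CD8 cells. It read 5.84, 6.07 and 5.80 in spleen CD8 cells. In the other 3 groups it lay between 4.09 and 4.50, with tumour CD8 at 4.27, 4.30 and 4.13. Spleen CD8 cells lay above all other arrays and were detected on 3 of 3, while each of the other groups was detected on 1 of 3. The fall in CD8 cells was -1.67 ± 0.13, the Tconv difference 0.04 ± 0.13 (adjusted p = 0.98), and the difference of differences -1.71 ± 0.19 (95% interval -2.11 to -1.32, adjusted p = 0.00358), the smallest p of the comparison. It passed in 24 of 29 alternatives, which was the most of any call. The other Cul9 probes lay near the floor and gave 0.12 and -0.04.

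Itgae, the alpha chain of the CD103 integrin that binds E-cadherin on epithelium, was likewise highest in spleen CD8 cells and did not pass. It was measured by 6 probes, all with negative differences. On the brightest it read 9.89, 8.66 and 8.81 in spleen CD8 and 6.70, 6.93 and 5.93 in tumour CD8 cells, and in Tconv 4.27, 5.33 and 4.19 in spleen and 4.40, 6.81 and 4.39 in tumour. The CD8 tissues did not overlap, and replicate 2 was the high array in both Tconv tissues. The difference of differences of this probe was -3.21 ± 0.84 (95% interval -5.00 to -1.42, adjusted p = 0.499), with -3.33, -3.20 and -3.09 on the 3 BeadChips. The probe with the smallest p gave -1.43 ± 0.28 (adjusted p = 0.172), and by it Itgae fell in CD8 cells by 1.40 log2 units (adjusted p = 0.00171). It passed without tumour CD8 replicate 1 (-1.66, adjusted p = 0.0188).

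**Figure D2:**
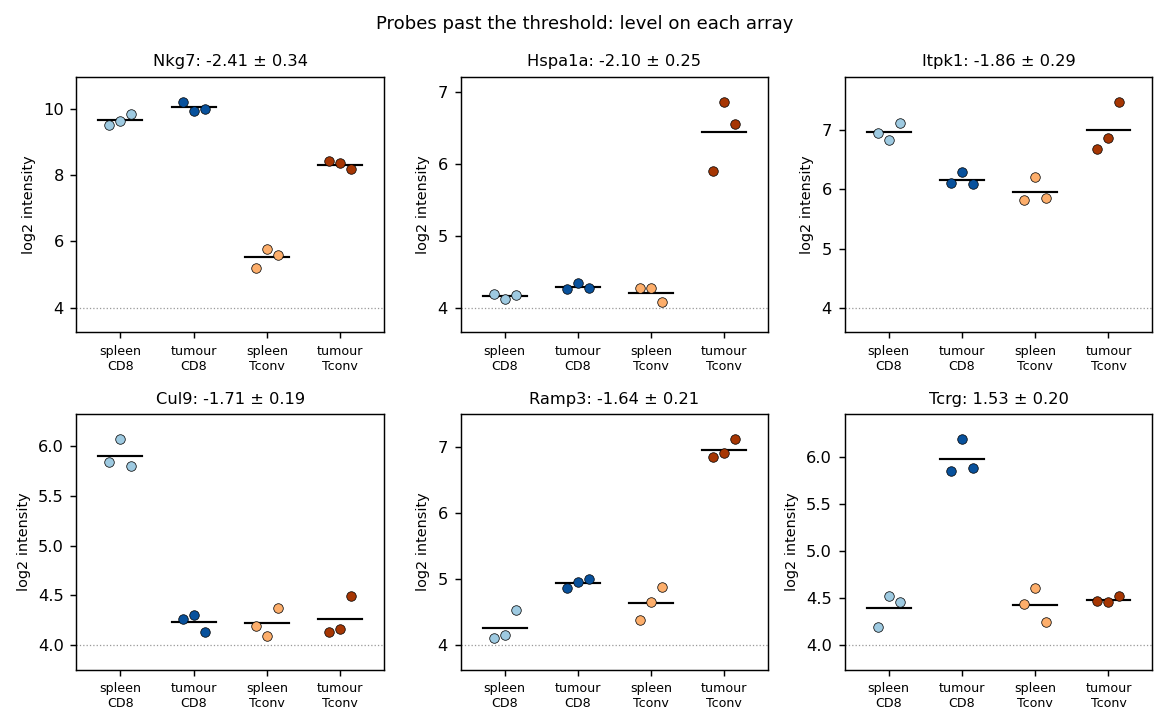
Log2 normalized intensity of the 6 called probes on each array (points) of spleen and tumour CD8 cells and spleen and tumour Tconv, with group means as bars, the floor of 4 as a dotted line, and the difference of differences ± SE in each title. Tumour Tconv stood alone for Hspa1a and Ramp3, spleen CD8 cells for Cul9 and tumour CD8 cells for Tcrg.

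The positive call was Tcrg, the T cell receptor gamma locus, whose chains pair with delta chains in gamma delta T cells and whose transcripts are also found in alpha beta T cells. It read 5.85, 6.19 and 5.89 in tumour CD8 and 4.19, 4.52 and 4.46 in spleen CD8 cells. In Tconv it read 4.47, 4.46 and 4.52 in tumour and 4.43, 4.61 and 4.24 in spleen. Tumour CD8 cells lay above the other groups, which overlapped. Tcrg rose in CD8 cells by 1.58 ± 0.14, the Tconv value was 0.06 ± 0.14 (adjusted p = 0.971), and the difference of differences was 1.53 ± 0.20 (95% interval 1.11 to 1.94, adjusted p = 0.00662). Values of 1.62, 1.82 and 1.14 were found on the 3 BeadChips. The call was lost with an offset of 4 (adjusted p = 0.0636) and with a trend in the prior variance (adjusted p = 0.0863). No label of the sort names a gate on gamma delta T cells, and of 9 marker genes for them 1 was measured, Blk, which did not pass (-0.24). Blk was also among the B cell markers, and was detected on 0 arrays of either tumour group and on 1 of each spleen group. It gives no measure of gamma delta T cells in the tumour groups. What part gamma delta T cells had in the Tcrg values was not tested.

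The following 9 genes had the smallest p among the other positive differences, and none passed. Gpr160, an orphan G protein-coupled receptor, came closest. It read 6.03, 6.36 and 7.37 in tumour CD8 cells and between 4.10 and 4.36 on the 9 other arrays. Tumour CD8 cells stood alone, and since spleen CD8 cells were undetected, the level in tumour CD8 cells was at least 5.03-fold higher. Its difference of differences was 2.31 ± 0.37 (95% interval 1.52 to 3.10, adjusted p = 0.0536), and it passed in 5 alternatives, which were an offset of 4, the detection filter at 0.01, 1 probe per gene, and the fits without tumour CD8 replicate 1 or 3.

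Spry2, an inhibitor of receptor tyrosine kinase and ERK signalling, read 5.85, 6.56 and 6.11 in tumour CD8, 4.23, 4.57 and 4.93 in spleen CD8, 4.48, 4.13 and 4.48 in tumour Tconv and 4.19, 4.19 and 4.53 in spleen Tconv. Zbtb32, a transcriptional repressor of lymphocyte activation, read 5.94, 5.36 and 6.39 in tumour CD8 and between 4.06 and 4.61 elsewhere. In both genes tumour CD8 cells lay above all other arrays. Both rose in CD8 cells, Spry2 by 1.59 ± 0.20 and Zbtb32 by 1.66 ± 0.24, with Tconv differences of 0.06 ± 0.20 and -0.05 ± 0.24. Their differences of differences were 1.53 ± 0.28 for Spry2 (adjusted p = 0.117) and 1.71 ± 0.34 for Zbtb32 (adjusted p = 0.19), and a second Zbtb32 probe gave 1.03 ± 0.28. Zbtb32 passed without tumour CD8 replicate 2 (1.98, adjusted p = 0.0439).

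Ifng, the interferon that activates macrophages and MHC expression, gave unlike answers from its probes. The first read 7.60, 8.05 and 6.53 in tumour CD8, 4.51, 4.27 and 4.11 in spleen CD8, 5.40, 4.58 and 5.50 in tumour Tconv and 4.45, 4.66 and 4.55 in spleen Tconv. By it Ifng rose in CD8 cells by 3.10 ± 0.36, the Tconv difference was 0.60 ± 0.36 (adjusted p = 0.694), and the difference of differences was 2.50 ± 0.51 (95% interval 1.40 to 3.59, adjusted p = 0.215). By the second probe Ifng rose in both populations, by 2.26 ± 0.34 in CD8 cells and 2.00 ± 0.34 in Tconv, and the difference of differences was 0.27 ± 0.48. The first passed without tumour CD8 replicate 3 (2.93, adjusted p = 0.0393).

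Nrp1, a coreceptor for semaphorins and VEGF that also marks thymus-derived Treg cells, rose in both populations. It read 6.90, 6.51 and 6.46 in tumour CD8 against 4.09, 4.15 and 4.07 in spleen CD8, and 7.59, 7.74 and 7.89 in tumour Tconv against 6.27, 6.23 and 6.04 in spleen Tconv. No group overlapped another, and Tconv was the brighter in each tissue. The probe was undetected in spleen CD8 cells, so the rise in CD8 cells was at least 5.20-fold, with a fitted value of 2.52 ± 0.14. In Tconv it was 1.56 ± 0.14, and the fitted difference of differences was 0.96 ± 0.19 (adjusted p = 0.19). In linear intensity the order turned, with a gain of 82.4 units in CD8 cells and of 142 in Tconv, a difference of -59.7 units. With an offset of 4 Nrp1 passed, at 2.32 (adjusted p = 0.0115).

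In the other 4 genes of this set, the mean of tumour Tconv lay below that of spleen Tconv. Vipr1, a receptor for vasoactive intestinal peptide, fell in Tconv by 1.68 log2 units (adjusted p = 0.00954), from 6.34, 5.77 and 6.02 in spleen to 4.30, 4.20 and 4.58 in tumour. In CD8 cells it read 6.03, 4.39 and 4.77 in tumour and 4.51, 4.34 and 4.65 in spleen, where replicate 1 of the tumour was high. Its difference of differences was 2.25 ± 0.42 (adjusted p = 0.145) on this probe and 1.82, 0.60 and 0.20 on the other 3. It passed without tumour CD8 replicate 1 or 2 (1.76, adjusted p = 0.0175, and 2.58, adjusted p = 0.0336). Acox3, a peroxisomal acyl-CoA oxidase, read 6.92, 7.23 and 7.40 in tumour CD8, 6.29, 6.41 and 6.16 in spleen CD8, 6.72, 6.08 and 6.58 in tumour Tconv and 7.02, 7.08 and 7.05 in spleen Tconv. The order of the tissues was reversed between the populations with no overlap within either, yet the difference of 1.48 ± 0.29 did not pass (adjusted p = 0.19).

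Zfp810, a zinc finger gene, had the same crossed order near the floor. It read 4.95, 5.45 and 4.59 in tumour CD8 against 4.25, 4.24 and 4.27 in spleen CD8, and 4.07, 4.23 and 4.18 in tumour Tconv against 5.17, 5.07 and 4.93 in spleen Tconv, with a difference of 1.64 ± 0.29 (adjusted p = 0.114). A630054M16Rik, undetected in spleen CD8 cells, rose there at least 2.23-fold, with a fitted difference of 1.70 ± 0.31 (adjusted p = 0.114). Zfp810 passed without tumour CD8 replicate 3 (1.84, adjusted p = 0.0393) and A630054M16Rik without spleen Tconv replicate 2 (1.91, adjusted p = 0.0342).

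**Figure D3:**
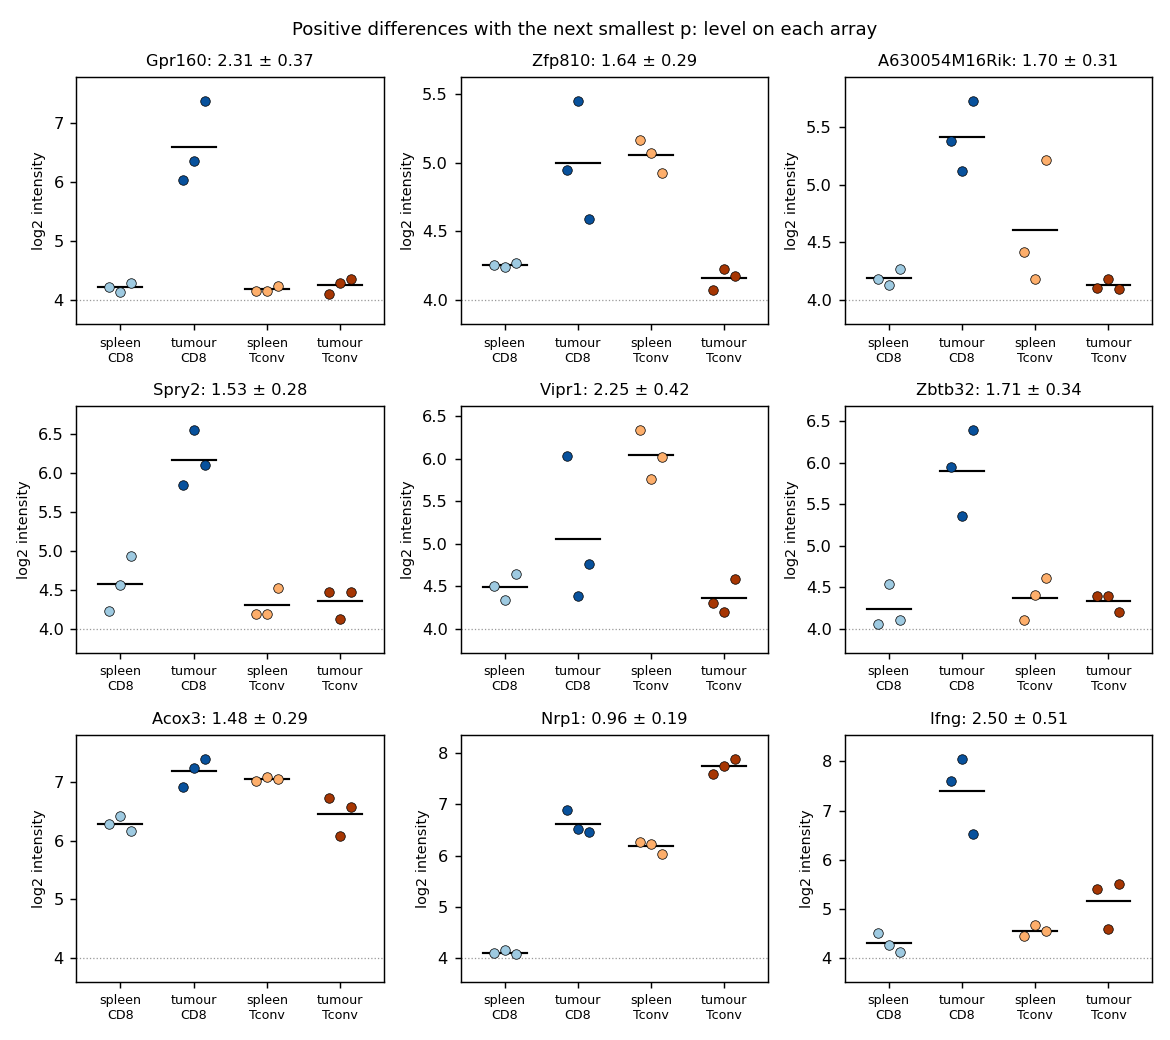
Log2 normalized intensity on each array (points; bars are group means; the dotted line is the floor of 4) of the 9 genes with the next smallest p among positive differences, with the difference of differences ± SE in each title. None passed; tumour CD8 cells stood alone for Gpr160, Spry2, Zbtb32 and Ifng, whereas in Zfp810, Vipr1 and Acox3 spleen Tconv lay above tumour Tconv.

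Genes were next read by function, over 23 lists of T cell programmes. Called probes were found in the cytotoxic granule list (Nkg7) and the heat shock list (Hspa1a) only. Counts below are of probes at an unadjusted p under 0.05, to be set beside 2.74% positive and 3.03% negative over all probes, and list members named beyond those with the smallest p were chosen after their values were seen.

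Effector molecules did not follow Nkg7 as a group in the difference of differences. In the tissue differences themselves, 6 of the 15 cytotoxic granule probes rose in Tconv, Nkg7 among them, and 2 rose in CD8 cells. Over all probes 0.861% rose in Tconv and 0.759% in CD8 cells. Of 15 probes of 13 cytotoxic granule genes, 2 were positive (Prf1 and Gzme) and 2 negative (Nkg7 and Srgn), with a median of 0.04. Prf1, the pore-forming perforin, read 6.57, 6.44 and 6.60 in tumour CD8 and 5.99, 6.17 and 6.00 in spleen CD8 cells, and 4.91, 4.82 and 4.57 in tumour Tconv and 5.69, 5.30 and 5.03 in spleen Tconv. Its order by tissue in Tconv was the opposite of that in CD8 cells, but the difference of differences of 1.06 ± 0.32 did not pass (adjusted p = 0.63) and a brighter Prf1 probe gave -0.10 ± 0.46. Gzmk, a granzyme of memory-type T cells, rose in both populations, by 3.27 in CD8 cells and 2.59 in Tconv (difference 0.68 ± 0.52).

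The chemokines Ccl3 and Ccl4, which activated CD8 cells secrete, were positive, and Ccl5 was negative. Ccl3 read 5.85, 5.92 and 5.66 in tumour CD8 cells, 5.20, 4.36 and 4.28 in tumour Tconv and 4.08 to 4.22 in both spleen groups. It rose in CD8 cells by at least 2.97-fold, and its difference between the populations was 1.23 ± 0.28 (adjusted p = 0.289; without tumour Tconv replicate 1, the high array of its group, 1.52, adjusted p = 0.0123). Ccl4 gave 1.25 ± 0.29 (adjusted p = 0.337) on a dim probe and 1.50 ± 0.80 on a bright one. Ccl5 rose in both populations, by 1.24 in CD8 cells and 1.81 in Tconv, with a difference of -0.57 ± 0.26 (adjusted p = 0.851). Over the 8 chemokine probes the median was 0.20, and it turned to -0.36 over probes detected in each of the 4 groups.

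Killer lectin and NK type receptors, which tune the killing of stressed or MHC-poor cells, had the highest median of the 23 lists. Of 18 probes of 12 genes, 15 differences were above 0 and 3 below, the median was 0.30 (0.02 to 0.47 over the alternatives), and the probes at an unadjusted p under 0.05 were 2 of Klra7, Klrk1 and Klrc2, all positive. Of the 18 probes, 3 were detected in tumour CD8 cells and in none of the other 3 groups, among them 1 of these Klra7 probes, and 7 were undetected in both Tconv groups. For such probes the sign followed from which groups were detected, so the counts and the median describe the list and support nothing further. Klrk1, the activating receptor NKG2D, rose in CD8 cells by 0.91 (adjusted p = 0.038) with a difference of differences of 0.74 ± 0.28 (adjusted p = 0.769). On this probe both Tconv groups lay near the floor, whereas on the Klrk1 probe brightest in tumour Tconv (5.22, 5.02 and 5.39) the difference was 0.43 ± 0.46.

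Chemokine receptors had the lowest median, -0.34 over 12 probes of 9 genes (-0.78 to -0.13 over the alternatives). Cxcr3, Cxcr6 and Ccr6 were negative and Cx3cr1 positive. Lineage and effector transcription factors were negative in Maf, Hopx and Tbx21 among 25 probes, with a median of -0.09. Tbx21, the type 1 regulator T-bet, rose in Tconv by 2.16 with a CD8 difference of 0.86, and Hopx, a cofactor without a DNA-binding domain of its own, rose in Tconv by 2.35 with a CD8 difference of 1.24. Their differences of differences were -1.30 ± 0.57 and -1.11 ± 0.46 (adjusted p = 0.833 and 0.826).

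Costimulatory receptors were mixed, with 3 positive and 5 negative among 29 probes and a median of 0.03. Tnfrsf18, the receptor GITR, read 8.26, 7.68 and 8.03 in tumour Tconv against 5.91, 6.48 and 5.99 in spleen Tconv, and 7.42, 7.18 and 7.16 in tumour CD8 against 6.29, 6.19 and 6.10 in spleen CD8 cells. It rose in both populations, by 1.86 ± 0.17 and 1.06 ± 0.17, and its difference of differences was -0.80 ± 0.24 (adjusted p = 0.63), with -0.98 ± 0.30 on a second probe. Tnfrsf9, the receptor 4-1BB, gave -1.30 ± 0.40 (adjusted p = 0.636) on 1 probe and 0.28 ± 0.50 and 0.04 ± 0.16 on the others. Tnfsf11 and Tnfsf14 were also negative. Both Cd27 probes and Cd40lg were positive.

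Inhibitory receptors gave 1 positive and 0 negative among 20 probes, and a median of -0.02. Ctla4, undetected in spleen CD8 cells, rose there at least 2.88-fold and by 1.77 in Tconv, with a fitted difference of -0.22 (95% interval -0.77 to 0.33). Havcr2, the receptor TIM-3, gave 0.63 ± 0.30 (adjusted p = 0.863) and Lag3 0.93 ± 0.46 (adjusted p = 0.888), both with tumour CD8 means above a floor at which the other groups lay. Pdcd1 was near the floor throughout, with group means of 4.18 to 4.38.

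Of the cytokine receptors and signalling genes, Il1r2, a decoy receptor for interleukin 1, read 6.00, 6.32 and 7.21 in tumour CD8 cells and 4.07 to 4.23 on the 9 other arrays, on none of which it was detected. It rose in CD8 cells at least 4.81-fold, and the difference of differences was 2.29 ± 0.59 (95% interval 1.03 to 3.56, adjusted p = 0.465). Il18r1, Il2rg, Il2rb and Il7r were negative and Cish positive, among 54 probes with a median of -0.02.

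Genes induced through the antigen receptor were positive in Cd69, Egr3 and Egr2 and negative in Tnfaip3, among 33 probes with a median of -0.04. Egr3, a factor of antigen receptor feedback, fell in Tconv by 2.64 log2 units, from 7.49, 7.56 and 7.92 in spleen to 4.41, 5.38 and 5.28 in tumour. In CD8 cells it read 6.49, 7.41 and 7.56 in spleen and 6.78, 6.60 and 5.83 in tumour, and these overlapped. The Egr3 difference between the populations was 1.89 ± 0.52 (adjusted p = 0.539). Cd69, an early activation antigen that holds T cells in tissue, read higher in tumour CD8 (7.53, 7.41 and 7.65) than in spleen CD8 cells (7.06, 7.00 and 7.41), and lower in tumour Tconv (6.98, 6.82 and 7.16) than in spleen Tconv (7.50, 7.63 and 7.57). Neither tissue difference passed on its own, and their difference was 0.95 ± 0.23 (adjusted p = 0.337).

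Rgs1, a regulator that dampens chemokine receptor signalling, rose in both populations by 2 of its 3 probes, and all 3 gave negative differences of -0.78 ± 0.27, -1.10 ± 0.43 and -0.98 ± 0.42 (adjusted p = 0.737, 0.774 and 0.833). Cell cycle genes had a median of 0.16 over 47 probes, with 33 above 0. Cdc20, an activator of the anaphase-promoting complex, gave 1.33 ± 0.44 on 1 probe (adjusted p = 0.702) and 0.52, 0.41 and 0.37 on its others. Mcm6, a subunit of the replicative helicase, gave 1.00 ± 0.33 on 1 probe (adjusted p = 0.702), 0.14 ± 0.26 on its brightest, and 0.12 and -0.53 on the others, so that its probes differed in sign.

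The Treg type list gave 4 positive and 7 negative of 30 probes (median -0.15), the negative ones being 4 of Itgae, both of Tnfrsf18 and Il2rb. Ikzf2, the factor Helios, rose in CD8 cells by 1.26 with a Tconv difference of -0.04, and the difference between them was 1.30 ± 0.33 (adjusted p = 0.439). CD4 and CD8 lineage genes gave 1 positive, Cd40lg, and 4 negative, all of Itgae, among 18 probes (median -0.16). Naive and lymphoid homing genes gave 1 positive, Lef1, and 2 negative, Ccr9 and Il7r, among 36 (median -0.07). Cytokines were positive in Ifng, Lta and Il17a and negative in none of 16 probes (median 0.09). Phosphatases of the DUSP family with RGS genes gave 1 positive and 4 negative of 27 (median 0.15), AP-1 factors 0 and 1 of 16 (-0.05), cholesterol and fatty acid synthesis genes 1 and 0 of 18 (0.07), and GIMAP genes 1 and 0 of 11 (-0.10). Glycolysis and hypoxia genes (median -0.06), type I interferon response genes (-0.11), interferon gamma inducible genes (-0.14) and T cell receptor machinery (-0.02) held at most 2 probes of either sign at an unadjusted p under 0.05.

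**Figure D4:**
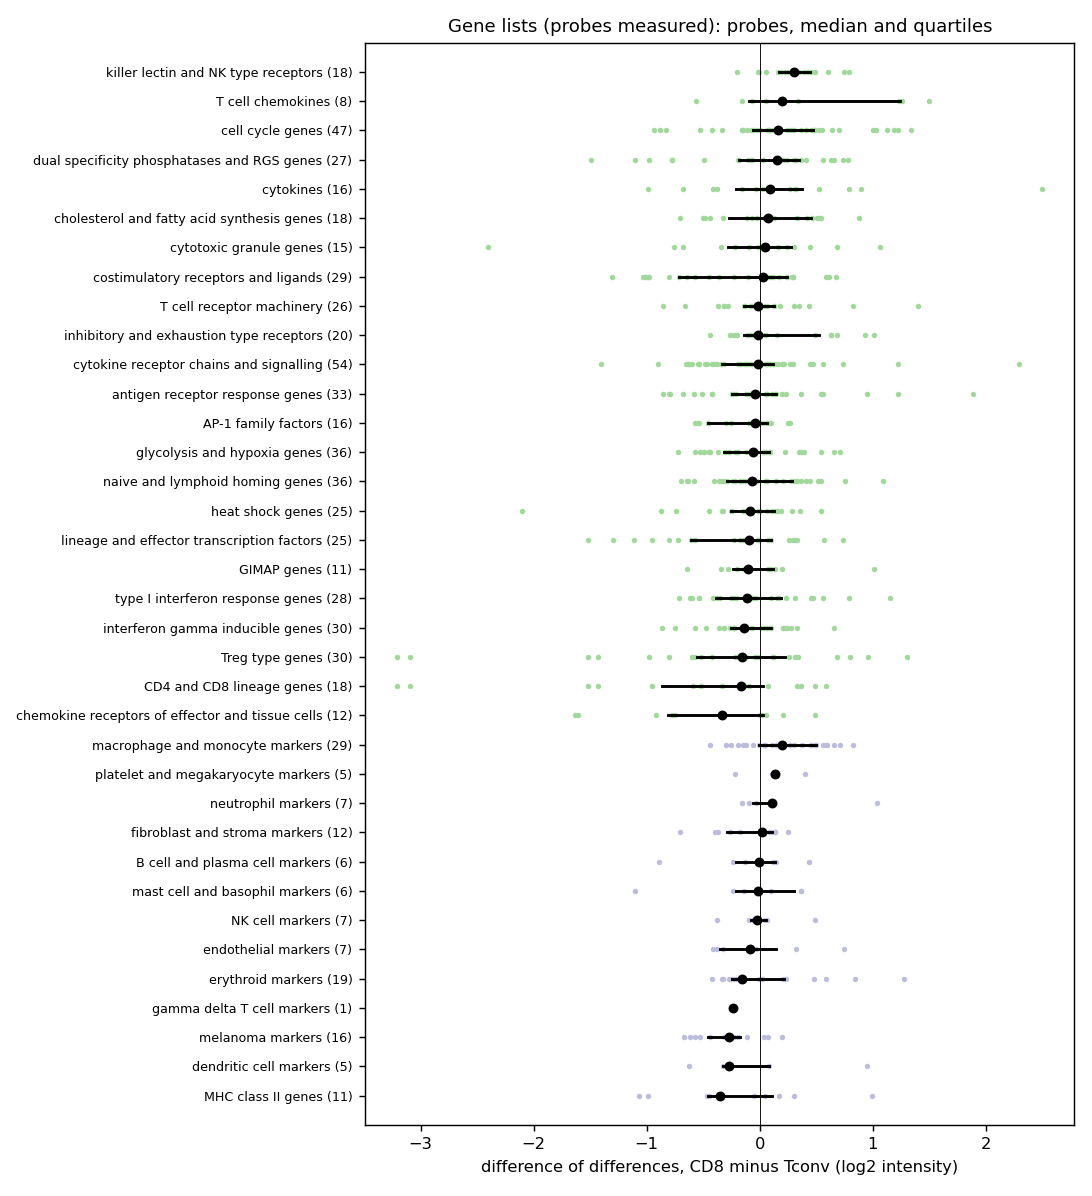
Difference of differences (horizontal axis, log2 intensity) of each probe of 23 lists of T cell programmes (green) and 13 lists of markers of other cell types (violet), with the number of probes in brackets, the median as a black point and the quartiles as a black line. Medians ran from -0.34 in chemokine receptors to 0.30 in killer lectin receptors among the programmes.

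For probes that passed in both populations the interval of the difference shows how alike the 2 tissue differences could be said to be. They include markers of other cells, such as Gpnmb, Clec10a, Mmp12 and Arg1 of macrophages and Hbb-b1 and Hbb-b2 of erythroid cells. What part such cells had in these shared differences was not tested. Over these 93 probes, of which 18 had an unadjusted p under 0.05 for the difference and 1 was called (Ramp3), the differences ran from -1.64 to 1.46 with a median absolute value of 0.34. The genes named here, other than those already given, were chosen after their values were seen. Bhlhe40, a basic helix-loop-helix repressor induced on activation, rose by 2.89 in CD8 cells and 3.04 in Tconv, and the interval of the difference was -0.90 to 0.59. Id2, an inhibitor of E proteins, rose by 1.42 and 1.44 (interval -0.55 to 0.51), and the costimulator Icos by 1.32 and 1.22 (interval -0.44 to 0.63). These intervals leave out a fitted difference of 1 log2 unit or more. For Bhlhe40 the spleen means, 4.20 in CD8 cells and 4.23 in Tconv, lay near the floor, so its fitted difference rests on levels close to background. Fasl, the death ligand, rose by 1.84 in CD8 cells and, being undetected in spleen Tconv, at least 3.44-fold in Tconv. Of the 93 probes, 21 were undetected on all arrays of at least 1 group, so that their fitted differences rest on a level not above background.

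Toward the edges of this set, Crem, a cAMP-responsive repressor, rose by 2.91 in CD8 cells and 4.38 in Tconv, with a difference of -1.47 ± 0.41 (adjusted p = 0.539) on 1 probe and -1.23 ± 0.42 on another. Hif1a, the oxygen-regulated transcription factor, rose by 0.76 and 1.42, with a difference of -0.66 ± 0.22 (adjusted p = 0.721). P2ry6, a receptor for UDP, was undetected in spleen CD8 cells and rose there at least 12.6-fold, and by 2.29 in Tconv, with a fitted difference of 1.46 ± 0.55 (adjusted p = 0.772).

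Markers of other cells moved with tissue in both populations. In bulk samples, more cells of a type and more RNA per cell cannot be told apart. Of 22 macrophage and monocyte markers, 20 were measured, and their summed level ran from 11.35 to 11.62 in tumour CD8 and from 10.73 to 11.75 in tumour Tconv, against 7.54 to 9.39 in spleen CD8 and 7.35 to 9.62 in spleen Tconv. The tumour groups overlapped each other. By probe, 9 of 29 rose in CD8 cells and 6 in Tconv, where 0.759% and 0.861% of all probes rose. None was called in the difference of differences (median 0.19, 1 positive and 0 negative at an unadjusted p under 0.05). Gpnmb, a lysosomal glycoprotein of macrophages and melanocytes, read 8.37, 8.00 and 9.29 in tumour CD8 and 8.46, 9.52 and 9.26 in tumour Tconv on its brightest probe, against 4.07 to 4.71 in the spleen groups. It was undetected in spleen CD8 cells, and rose there at least 19.8-fold (fitted 4.46), and by 4.59 log2 units in Tconv. The fitted difference was -0.13 (95% interval -1.06 to 0.81), which the undetected group leaves without a measured baseline. The macrophage lectin Clec10a rose by 4.51 in CD8 cells and, being undetected in spleen Tconv, at least 24.9-fold in Tconv.

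Erythroid markers moved the other way. Their summed level ran from 5.86 to 10.4 in tumour CD8 and 5.78 to 10.4 in tumour Tconv, and from 11.5 to 13.1 in spleen CD8 and 11.4 to 13.6 in spleen Tconv, with a median difference of -0.16 over 19 probes and none at an unadjusted p under 0.05. Melanoma markers ran from 6.47 to 8.54 in tumour CD8 and from 6.99 to 9.18 in tumour Tconv, against 6.21 to 6.94 in spleen CD8 and 5.95 to 6.93 in spleen Tconv. Of their 16 probes 3 differences were above 0 and 13 below (median -0.27), with 0 of either sign at an unadjusted p under 0.05. MHC class II genes ran from 8.28 to 8.53 in tumour CD8, 7.66 to 10.2 in spleen CD8, 7.25 to 8.61 in tumour Tconv and 6.80 to 10.0 in spleen Tconv, and their 2 negative probes were both of H2-DMa, at -0.99 ± 0.30 and -1.07 ± 0.37 (adjusted p = 0.63 and 0.737). The remaining lists had medians of -0.28 for dendritic cells (5 probes), 0.11 for neutrophils (7), -0.01 for B and plasma cells (6), 0.02 for fibroblasts and stroma (12), -0.09 for endothelium (7), 0.14 for platelets (5) and -0.02 for mast cells and basophils (6). At an unadjusted p under 0.05 they held 1 negative probe each of Siglech, Fn1 and Plvap and 0 positive. What part such cells had in the differences above was not tested.

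**Figure D5:**
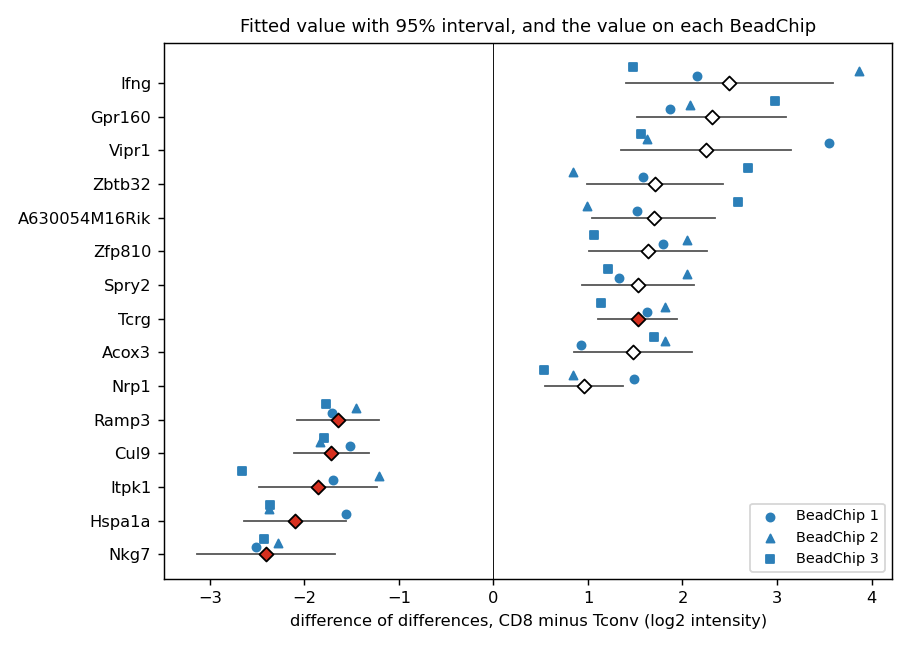
Difference of differences (horizontal axis, log2 intensity) of the 6 called probes (red diamonds) and of the 9 genes with the next smallest p among positive differences (open diamonds), with 95% intervals as lines and the value on each BeadChip as blue symbols. All 15 kept their direction on the 3 BeadChips, with the widest spread for Ifng and Vipr1.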

How the data were processed

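RNA of 18 sorted T cell samples was hybridised to Illumina mouse expression BeadChips after 2.5 ng of each had been amplified and labelled with biotin, per the labels. The deposited table holds, for 46237 probes, the mean bead intensity on every array as scanned, not normalized, beside its detection p-value, per the file headers. The deposited table of normalized intensity, made by a method that the sources used here do not give, was used as an alternative.

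The neqc function (limma 3.58.1, R 4.3.3) corrected the background. It inferred the negative controls from the detection p-values, added an offset of 16, normalized by quantiles and took log2. Of 46237 probes, 35784 had 1 gene name through the platform annotation, updated by Entrez number (28620) or accession (2637), and 4527 kept the platform's name. Probes detected at p under 0.05 on at least 3 arrays were kept (22409). One linear model with 6 group means over all 18 arrays (12 residual degrees of freedom) gave the difference of differences and both tissue differences, tested with limma's moderated test and adjusted by Benjamini-Hochberg over these probes. Intervals are at 95%. The number of arrays limits the precision. The steps were tested on simulated data. Where a group had no detected array, folds are lower bounds against the lowest detected signal of each array or the probe's own, whichever was higher.

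Replicate numbers go with BeadChips. Between same-numbered arrays of the 4 groups, deviations from group means correlated from -0.0846 to 0.0877, and 0 of 18 pairs exceeded 0.1. Over all groups, 5 of 45 pairs did. The fit without a block was kept as the main one because no label says that a number marks shared mice.

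The rule for naming took the sorting genes and all called genes with their other probes. It also took the 10 genes with the smallest p in a direction with fewer than 5 calls. From the lists it took called members and, from each list, the 2 genes of smallest p. Some genes that the rule took, such as Thy1, Irf1 and Gapdh, are not given above. Members and lists were chosen with earlier results of these data known. The lists cover 23 T cell programmes and, as markers, 13 other cell types. Alternatives covered normalization, background, offset, filter, probe choice, arrays in the fit, replicate block, array weights, prior trend and left-out replicates.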

Additional observations from a re-analysis of the deposited data

Results flagged for a closer look

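The tumour effect differed between CD8 cells and Tconv by a test of the difference itself for 6 probes. The values were -2.41 for Nkg7, -2.10 for Hspa1a, -1.86 for Itpk1, -1.71 for Cul9, -1.64 for Ramp3 and 1.53 for Tcrg, on the log2 scale, CD8 minus Tconv. Groups of 3 arrays were not examined for outlying samples. Among 5065 detected probes without a gene name, 0 passed in limma and 223 had an unadjusted p under 0.05 when they were adjusted together with the named ones, and 5 named probes passed in that fit.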

How the results depend on the processing

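Over 29 alternatives no called probe reversed. In some of them, such as the detection filters, the replicate block and the prior trend, the estimate stays the same and only the p-value can change. The threshold was passed by Cul9 in 24, Tcrg in 22, Ramp3 in 21, Hspa1a in 20 of 27, Nkg7 in 13 and Itpk1 in 4. Counts of opposite sign below are of bare signs, whether or not each tissue difference passed. In the main analysis they were Cul9, whose Tconv difference was 0.04 ± 0.13, and Itpk1, whose CD8 difference did not pass. With 6 calls in the main analysis (1 higher, 5 lower, 2 with tissue differences of opposite sign), median scaling gave 3 calls (2 lower, 1 of opposite sign), a trend in the prior variance 3 (0 higher, 3 lower, 1 opposite) and the 12 arrays alone 1 (Nkg7; 0 higher, 1 lower, 0 opposite). Lower calls were 3 without background correction, with an offset of 4, in the deposited values and with detection required in each of the 4 groups, and 1 call was of opposite sign in each of these, with an offset of 50, without a detection filter, with array weights and with the replicate block. Higher calls were 2 with an offset of 4, the detection filter at 0.01 and 1 probe per gene. With the replicate block 5 probes passed, and Itpk1 did not (adjusted p = 0.1). Leaving out arrays gave 0 to 10 calls, 0 to 5 higher, 0 to 8 lower and 0 to 4 of opposite sign. The lowest counts came from leaving out a whole replicate number, which leaves 2 arrays in each group, and the highest, 10, from leaving out tumour CD8 replicate 1 or spleen CD8 replicate 2. With 1 value for each BeadChip, an alternative chosen after seeing the data, 0 calls were made (0 higher, 0 lower), with 1262 probes at an unadjusted p under 0.05. Of 2243 alternative values of the 80 genes that the naming rule took and that did not pass, 15 passed. List medians near 0 changed sign under some alternatives, such as costimulatory receptors in 15 of 29. Medians kept their sign throughout for killer lectin receptors, chemokine receptors and cell cycle genes. So did some medians closer to the value over all probes, such as those of heat shock genes (-0.08) and AP-1 factors (-0.05). Signal near background limits every probe with group means close to 4, where differences are compressed.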

Other observations

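Across all named probes the tumour difference in CD8 cells and the tumour difference in Tconv had a Pearson correlation of 0.422 and a Spearman correlation of 0.230. This describes probes, which are not independent, of arrays that share BeadChips and hybridisation.

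Further list members with small p values bore on other functions. Ccr9, the receptor that guides T cells to the gut, fell in CD8 cells by 0.63 log2 units on a dim probe, with a difference of differences of -0.70 ± 0.19 (adjusted p = 0.515). Trat1, an adaptor that stabilises the T cell receptor complex, gave -0.86 ± 0.29 on the brighter of its probes and 0.44 ± 0.20 on another. Gimap9, a GTPase of lymphocyte survival, gave 1.01 ± 0.35 (adjusted p = 0.737). Fn1, the matrix protein fibronectin, gave -0.70 ± 0.19 (adjusted p = 0.539) with group means of this probe between 4.21 and 4.65.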
